A study of Homo sapiens with 6 samples.

Results

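The genes of the mitochondrial ribosomal proteins, named MRPL for the large and MRPS for the small subunit of the ribosome inside mitochondria, were followed in D283 Med, an established line of paediatric medulloblastoma cells, with and without knockdown of Musashi-1 (gene MSI1). Members were the rows of the deposited expression table whose whole symbol is MRPL or MRPS, digits and an optional letter. They numbered 76 of 31785 rows, 48 MRPL and 28 MRPS, and 21 rows with a hyphen or a pseudogene suffix were not counted. GENCODE 29 holds 78 such symbols, and the remaining MRPL53 and MRPS18B were not analysed here. Musashi-1 binds RNA, is typical of neural stem cells and controls the translation and stability of its target mRNAs. Per the labels, 3 RNA sequencing libraries came from WT cells and 3 from cells with the knockdown, all of them grown in serum-containing medium. The method of the knockdown is not in the labels, nor is any control construct in the WT cells. Nothing there says that replicate libraries were cultured separately, so p-values measure only the spread between these libraries, and part of it may be technical.

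Mitochondria translate a small set of mRNAs, transcribed from their own DNA, that encode core subunits of the respiratory chain and the ATP synthase. The ribosome that does so has RNAs encoded in mitochondrial DNA and proteins that are all encoded in the nucleus, made in the cytosol and imported. Many of these proteins descend from those of the bacterial ribosome, and others were added in the mitochondrial lineage. Their genes are scattered over the chromosomes rather than clustered, and many share a promoter region with a neighbour read in the opposite direction.

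The libraries held 17299671 to 38790342 reads in WT and 18895997 to 24442276 in the knockdown. OTX2, a transcription factor of medulloblastoma, had 23664 ± 3340 normalised reads in WT and 30373 ± 3590 in the knockdown (SD, n = 3 each), while SOX2 was at or near 0 in every library. Of the markers of other cell types, PTPRC and CD68 had at most 2.9 normalised reads in any library, and of the 9 in the table COL1A1, COL1A2 and VWF passed the filter on low values, with none of them past the test. Of 8 medulloblastoma and neural markers 5 passed the filter, with SOX2, EOMES and TUBB3 below it. Those 5 did not go one way: 4 were higher and NCAM1, a neural adhesion molecule, was lower in every knockdown library, with a log2 difference of −0.73 (limma adjusted p = 0.0621). For MSI1 itself the WT libraries 1, 2 and 3 held 1586, 1572 and 1378 normalised reads, and the knockdown libraries held 1385, 1197 and 1281. Its knockdown mean was 85.2% of the WT mean, the groups overlapped, and the difference did not pass (limma adjusted p = 0.304), so the groups are named here by their labels. Normalised reads are the read counts recovered from the deposited values, divided by each library's size factor. In bulk RNA, fewer cells of a type and less RNA per cell cannot be told apart.

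The members' mRNAs were mostly somewhat higher in the knockdown, but 2 of them passed the test. MRPS28 and MRPL13 rose, and no member fell, at a limma adjusted p under 0.05, beside 4.10% of the 13558 genes tested in either direction, 1.78% higher and 2.32% lower. MRPL45 and MRPS24 lay below the filter on low values, a mean of 27.6 normalised reads, and 74 members were tested. With limma voom on the recovered reads, again MRPS28 and MRPL13 were called and no member was called lower. On the deposited values, 54 of the 74 tested members had a difference above 0 and 20 below. That is 73.0% higher, beside 51.0% of all genes tested. The median difference, knockdown minus WT on the deposited log2 scale, was 0.14 over the members and 0.01 over all genes tested. With the 2 members under the filter included, 54 of 76 were higher and the median was again 0.14.

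The knockdown libraries were all above, or all below, the WT libraries for 21 members. In 18 members every knockdown library was higher, 24.3% of those tested beside 14.1% of all genes. In 3 members, MRPL10, MRPS23 and MRPL46, every knockdown library was lower, 4.05% beside 13.6% of all genes. At an unadjusted p under 0.05 there were 15 members, or 20.3% of those tested, beside 22.0% of all genes tested. The share with a small p was thus near that of the whole table. By direction, 13 of the 74 tested members were higher and 2 lower at that level, beside 10.8% of all genes higher and 11.2% lower. These shares describe the list and were not put to a test.

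**Figure D1:**
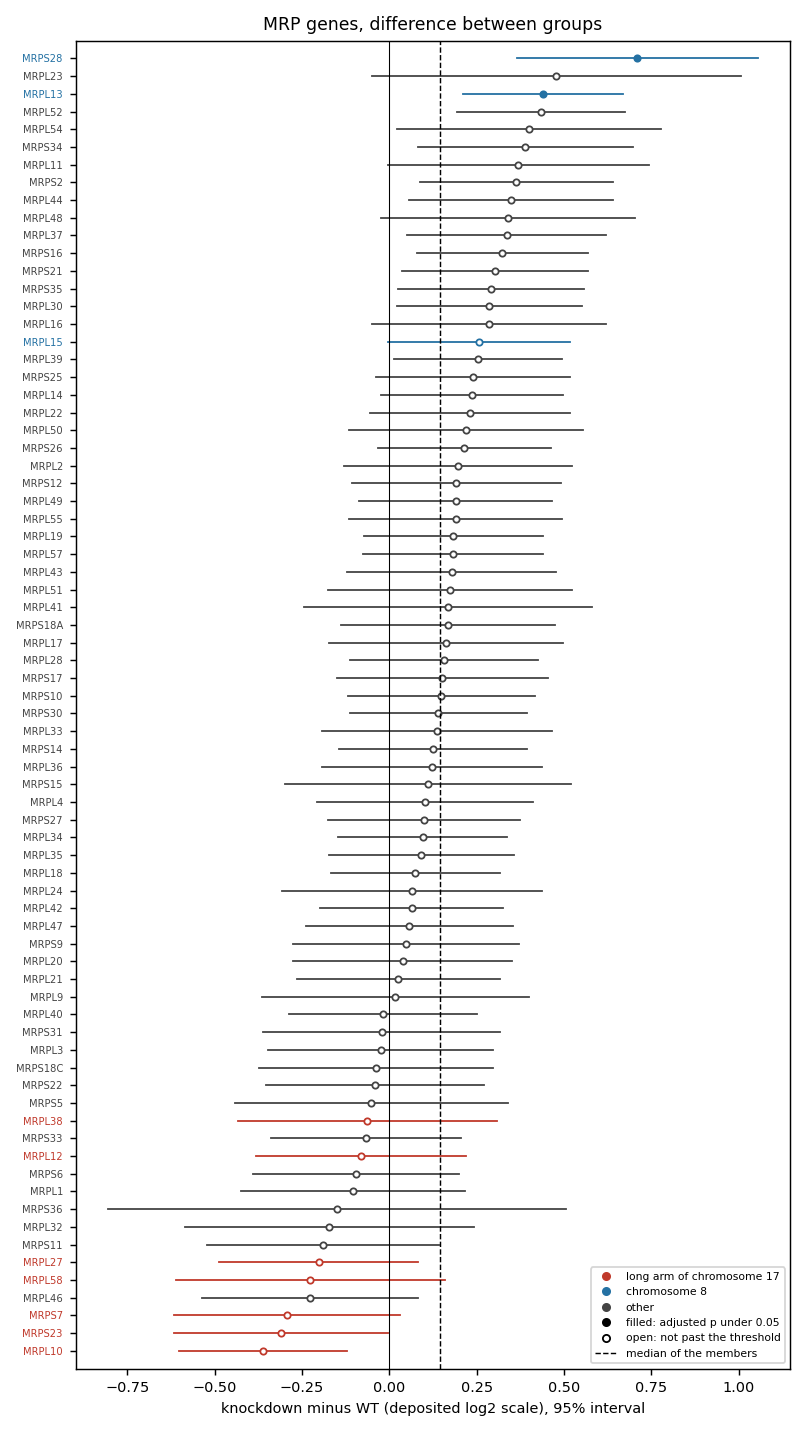
Difference of each of the 74 tested members, knockdown minus WT on the deposited log2 scale, with its 95% interval, from the largest at the top to the lowest at the bottom. Filled points, MRPS28 and MRPL13, passed the test, red points lie on the long arm of chromosome 17 and blue points on chromosome 8, and the dashed line is the members' median of 0.14.

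The offset did not hold for every pair of libraries. Each member's value was taken relative to its mean over the 6 libraries, and the median over the members was computed for each library. It was 0.03, −0.15 and −0.11 in WT 1, 2 and 3, against 0.13, −0.03 and 0.12 in knockdown 1, 2 and 3. WT 1 stood above knockdown 2, so the groups overlapped. Over all genes tested the same medians lay between −0.02 and 0.01. Leaving out 1 library at a time moved the members' median difference from 0.10, without knockdown 3, to 0.19, without knockdown 2, and the number of members higher from 49, without WT 2, to 61, without WT 1. Scaled to the size of each library, the members' reads as CPM (counts per library scaled to a common total) were 4411, 3885 and 4283 in the WT and 4673, 4234 and 4574 in the knockdown libraries, which overlapped as well.

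**Figure D2:**
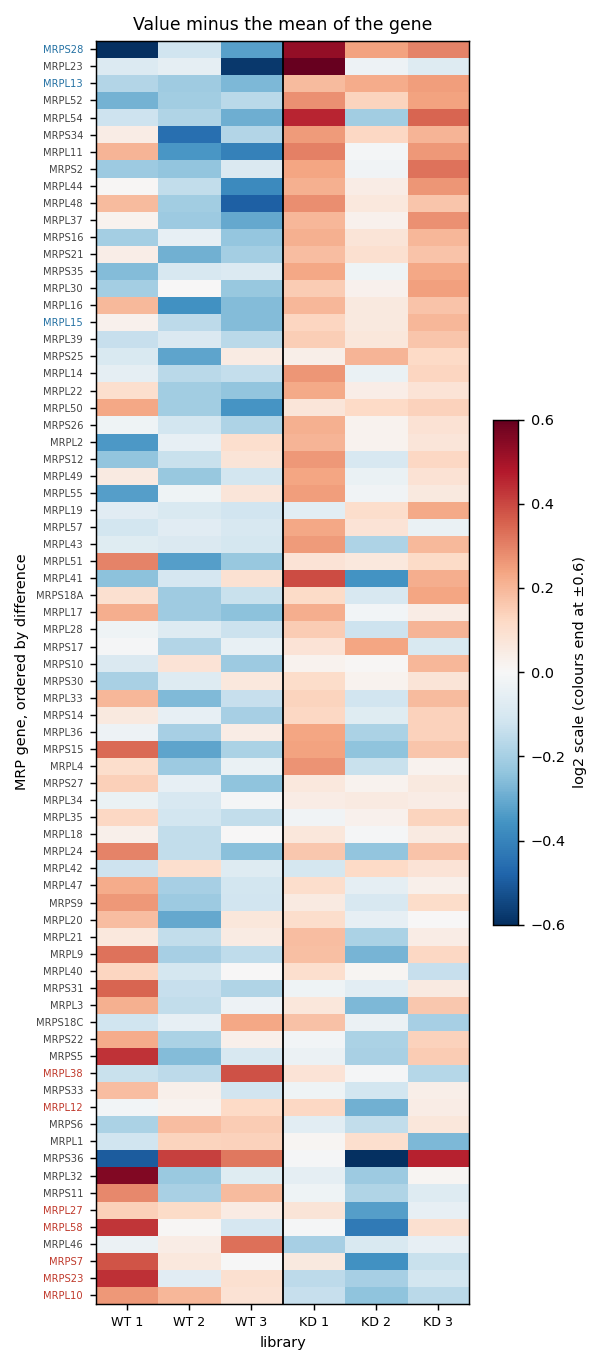
Value of each tested member (vertical axis, in the order of the difference) in each of the 6 libraries (horizontal axis), minus the mean of the gene, on the deposited log2 scale with red above and blue below the mean. WT 2 and WT 3 are blue for most members, WT 1 is mixed, and knockdown 2 is paler than knockdown 1 and 3.

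MRPS28, a protein of the small subunit with a homologue in bacteria, had the largest difference of all members. It had 206.4, 331.1 and 273.3 normalised reads in WT 1, 2 and 3, against 573.8, 451.5 and 474.3 in knockdown 1, 2 and 3. All 3 knockdown libraries were above all WT libraries. The means of 270.3 ± 62.4 and 499.8 ± 65 (SD, n = 3 each) gave a ratio of 1.85, with a log2 difference of 0.71 ± 0.16 (SE; 95% interval 0.36 to 1.06, limma adjusted p = 0.0359). It passed in 10 of 16 alternative analyses, and was lost without WT 1 or WT 3, without any 1 of the knockdown libraries, and with the replicate block. The gene (ENSG00000147586) spans 79918717 to 80030289 on the minus strand of chromosome 8 in GRCh38. Of its exon bases, 35.8% are shared with AC036214.3 on the same strand, so reads of the 2 genes could have been split.

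MRPL13, whose bacterial counterpart joins the large subunit early in its assembly, had 1823, 1775 and 1700.1 normalised reads in WT 1, 2 and 3. In knockdown 1, 2 and 3 it had 2379, 2436 and 2484. The values within each group lay close together and the groups were far apart, with means of 1766 ± 61.9 and 2433 ± 52.6. The ratio was 1.38, and the difference was 0.44 ± 0.10 (SE; 95% interval 0.21 to 0.67, limma adjusted p = 0.0446). It passed in 7 of 16 alternatives, and of the analyses with a library left out it passed only without WT 1. The gene (ENSG00000172172) lies at 120380761 to 120445402 on the minus strand of chromosome 8. MTBP, which starts 2 bases away in the opposite direction, had a difference of 0.31 (limma adjusted p = 0.179).

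MRPL52, a large-subunit protein without a bacterial homologue, came close to the threshold and missed it. It had 1109.8, 1175 and 1216 normalised reads in WT 1, 2 and 3, against 1682, 1518 and 1643 in knockdown 1, 2 and 3. The groups did not overlap, with a ratio of 1.38 and a difference of 0.43 ± 0.11 (SE; limma adjusted p = 0.0524), and it passed in 1 of 16 alternatives, the one with library weights. MRPS34, a small-subunit protein also without a bacterial homologue, had 1375, 941.6 and 1163 in WT 1, 2 and 3. In knockdown 1, 2 and 3 it had 1607, 1459 and 1544, above all WT libraries, and the difference of 0.39 ± 0.14 did not pass (limma adjusted p = 0.141).

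MRPL52 and MRPS34, among the members highest in the knockdown, and MRPS23, among the lowest, show the short sequence words that promoters of this class of genes often carry. Each line gives the reference sequence from 150 bases before to 30 after the transcription start, from RefSeq's promoters on GRCh38.p14, at chr14:22829737-22829916 on the plus strand, chr16:1773105-1773284 on the minus strand and chr17:57850015-57850194 on the minus strand. Capitals mark the words of ETS factors such as GABPA (CCGGAAG, read on the other strand as CTTCCGG) and of YY1 (AAGATGGCG).
MRPL52: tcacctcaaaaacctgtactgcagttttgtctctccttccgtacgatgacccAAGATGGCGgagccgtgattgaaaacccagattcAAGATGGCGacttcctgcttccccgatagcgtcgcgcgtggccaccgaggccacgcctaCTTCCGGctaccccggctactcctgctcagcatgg
MRPS34: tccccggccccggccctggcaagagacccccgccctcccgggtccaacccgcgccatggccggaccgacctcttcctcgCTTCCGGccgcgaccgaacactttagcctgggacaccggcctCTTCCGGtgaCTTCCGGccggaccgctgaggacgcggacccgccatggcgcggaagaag
MRPS23: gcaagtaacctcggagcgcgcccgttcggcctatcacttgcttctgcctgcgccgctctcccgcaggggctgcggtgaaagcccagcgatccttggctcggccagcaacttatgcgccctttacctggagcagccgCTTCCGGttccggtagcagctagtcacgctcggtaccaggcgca
In MRPL52 the YY1 word starts 98 and 64 bases before the transcription start and the ETS word 5 bases before it. MRPS34 has the ETS word 3 times, at 71, 29 and 19 bases before the start, and MRPS23 has it once, at 14 bases. Both MRPS34 and MRPS23 hold the word. MRPS34 was higher in the knockdown, and MRPS23, on the long arm of chromosome 17, was lower. The part of the word or of the arm in these differences was not tested.

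In the RefSeq promoter table, 67 members matched by symbol, with 83 windows of 250 bases before to 50 after a start. The rest had no entry, among them both members that passed, MRPS28 and MRPL13, as well as MRPL23, MRPL15 and MRPL10. They are left out of the shares and medians given here, and their promoters could not be shown. CCGGAAG, on either strand, was in 38.6% of the members' windows, in 10.3% of all 35116 windows and in 16.6% of the windows of tested genes. AAGATGGCG was in 14.5%, 1.75% and 3.43%, and the 10-letter palindrome of the factor NRF1 in 1.20%, 1.24% and 1.96%, with MRPL17 the one member that holds it. The ETS word ends in the letters AAG with which the YY1 word begins, so that the words can overlap by these. The 29 tested members with the ETS word had a median difference of 0.15 and the 36 others matched had 0.13. With and without the YY1 word it was 0.14 in both. A match describes the letters of the window and not binding of a factor.

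Members named MRPL were higher in 37 of 47 tested, with a median difference of 0.16. Those named MRPS were higher in 17 of 27, with 0.13. The name alone set this split, MRPS36 included, and the subunit in which each protein sits was not checked. The median of those named MRPS was 0.066 without WT 3 and 0.19 without WT 1. The order of MRPL and MRPS was thus not fixed, and their difference was not tested. MRPL23, at the exit of the peptide tunnel, had 390.9, 401.7 and 249.5 normalised reads in WT 1, 2 and 3, against 820.7, 410.0 and 393.8 in knockdown 1, 2 and 3. Knockdown 1 stood alone, and the difference of 0.48 ± 0.24 (limma adjusted p = 0.270) was 0.19 without it. MRPL54 had a ratio of 1.41 and a difference of 0.40 (adjusted p = 0.205), although knockdown 2, at 553.3, lay within the WT range of 515.8 to 593.0. MRPL11, at the base of the stalk that recruits translation factors, had a difference of 0.37 (adjusted p = 0.232), with WT 1 at 2422 between the knockdown libraries, which lay at 2075 to 2604.

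MRPL44, which carries a fold related to ribonuclease III, had 1182, 1053 and 878.9 normalised reads in WT 1, 2 and 3, against 1383, 1216 and 1437 in knockdown 1, 2 and 3. These groups did not overlap, with a difference of 0.35 ± 0.13 (SE; limma adjusted p = 0.162). MRPS2, a small-subunit protein shared with bacteria, had a difference of 0.36 ± 0.13 (SE; adjusted p = 0.129), with 1143 to 1279 normalised reads in WT and 1346 to 1743 in the knockdown. MRPL48 had a difference of 0.34 (adjusted p = 0.257) and overlapped through WT 1. None of these passed. Members with a bacterial homologue were higher in 35 of 46 tested, with a median of 0.12, and those without in 19 of 28, with 0.18. The median of those with a homologue was 0.065 without WT 2 and 0.19 without knockdown 2, a range that holds the value of the others.

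**Figure D3:**
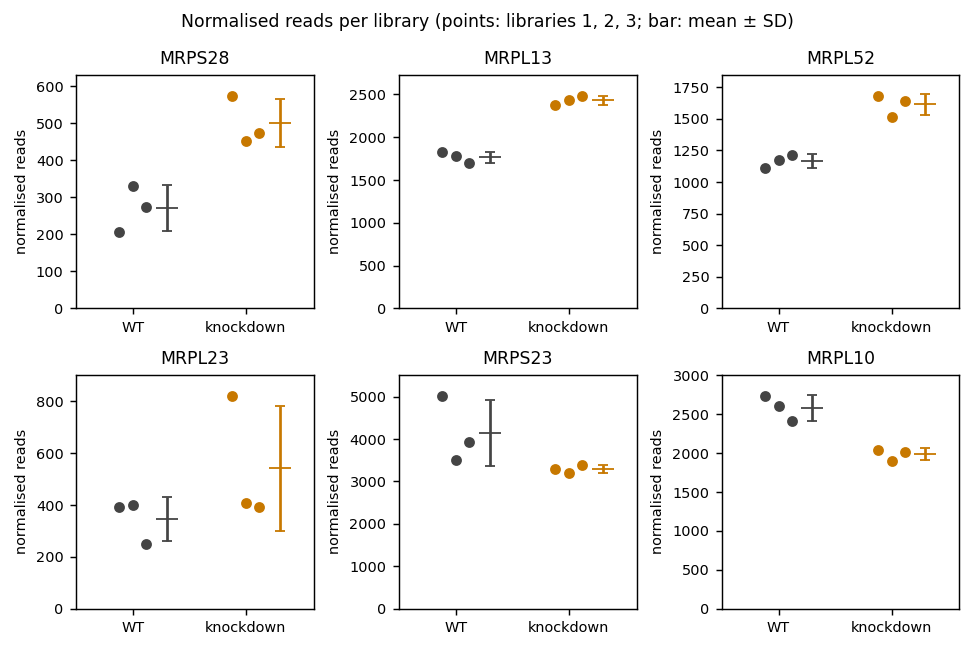
Normalised reads (vertical axes, from 0) of 6 members in WT and knockdown, each point a library in the order 1, 2, 3 and each bar the mean ± SD of 3 libraries. MRPS28, MRPL13 and MRPL52 are higher in every knockdown library, MRPL23 is high in knockdown 1 at 820.7, and MRPS23 and MRPL10 are lower in every knockdown library.

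The long arm of chromosome 17 (17q) holds 8 members, and all 7 tested were lower in the knockdown, with a median of −0.23. No tested member was higher on 15q and 4q, with 2 each, or on 7q and 22q, with 1 each. The 578 tested genes of 17q had a median of −0.33, the lowest of 41 arms with at least 50 tested genes, and 514 of them were lower. Of the other 67 tested members, 54 were higher, with a median of 0.16. Lower values of members on this arm thus stood beside lower values of the arm as a whole, and the part of the arm in them was not tested. The medians of the 17q members were 0.26, 0.02 and 0.08 in WT 1, 2 and 3, against 0.06, −0.29 and −0.11 in knockdown 1, 2 and 3, which overlapped. Without knockdown 2, the median difference of the 17q members was −0.09.

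MRPL10, a protein at the base of the stalk, had the lowest difference of all members. It had 2732, 2610.4 and 2406 normalised reads in WT 1, 2 and 3, against 2043, 1898 and 2012 in knockdown 1, 2 and 3. The groups did not overlap, and the difference of −0.36 ± 0.11 (SE; 95% interval −0.60 to −0.12) did not pass (limma adjusted p = 0.0898); it passed with library weights, where the adjusted p was 0.0494. MRPS23, a small-subunit protein without a bacterial homologue, had 5012, 3502 and 3932 in WT 1, 2 and 3. In knockdown 1, 2 and 3 it had 3289, 3189 and 3394, and the difference of −0.31 ± 0.14 did not pass (limma adjusted p = 0.225).

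The other members of 17q overlapped between the groups. MRPS7, whose bacterial counterpart starts the assembly of the head of the small subunit, had a difference of −0.29 (limma adjusted p = 0.270). MRPL58, which frees stalled peptides from the ribosome, had −0.23 (adjusted p = 0.484), and MRPL27, near the peptidyl transferase centre, had −0.20 (adjusted p = 0.393). MRPL12, the stalk protein itself, had −0.08 (adjusted p = 0.771) and MRPL38 −0.06 (adjusted p = 0.864). Of the exon bases of MRPL12, 68.2% are shared with AC139530.2, and of those of MRPL38, 37.5% are shared with AC087289.3. MRPL45, which helps to hold the ribosome at the inner membrane, had 17.6, 5.0 and 8.4 normalised reads in WT 1, 2 and 3, against 4.0, 1.3 and 15.0 in knockdown 1, 2 and 3, too few to test.

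Both members that passed lie on the long arm of chromosome 8, as does MRPL15. MRPL15, a large-subunit protein shared with bacteria, had 1575, 1374 and 1272 normalised reads in WT 1, 2 and 3, against 1698, 1612 and 1787 in knockdown 1, 2 and 3. Its groups did not overlap, and the difference of 0.26 ± 0.12 (SE) did not pass (limma adjusted p = 0.230). The 318 tested genes of that arm had a median difference of 0.10, the highest of the 41 arms, and 210 of them were higher. On the scale of the arm MRPS28 and MRPL13, at 0.71 and 0.44, lay well above that median, and the part of the arm in them was not tested. Among genes within 500 kb, HEY1, a transcription factor of the Notch pathway 150854 bases from MRPS28, rose (0.50, limma adjusted p = 0.0335), and the others did not pass.

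Off both arms, 51 of 64 tested members were higher, with a median difference of 0.15. None of them passed, and 11, all of them higher, had an unadjusted p under 0.05, which is 17.2% beside 22.0% of all genes in either direction and 10.8% higher. Set against the median difference of all tested genes on its own arm, 59 of 74 members lay above and 15 below, with a median of 0.13. On 17q, 6 of 7 lay above their arm's median and MRPL10 below.

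**Figure D4:**
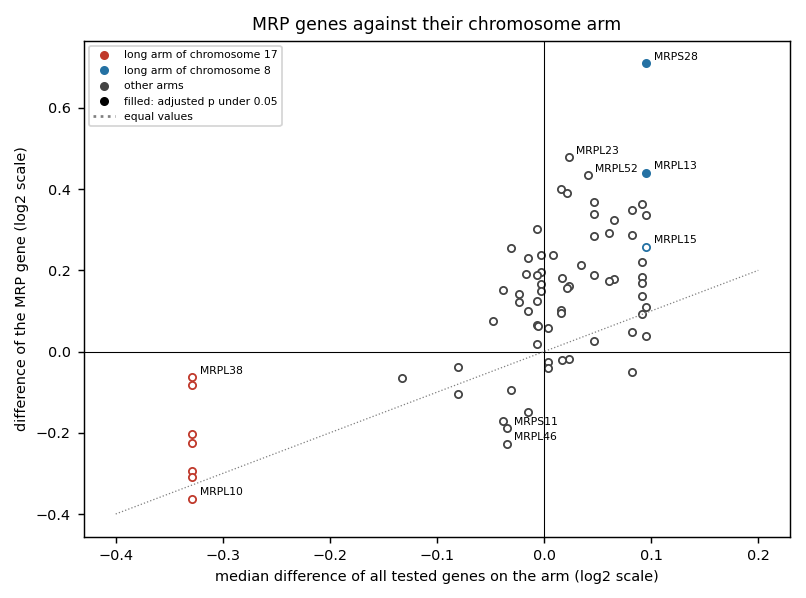
Difference of each tested member (vertical axis) against the median difference of all tested genes on its chromosome arm (horizontal axis), knockdown minus WT on the log2 scale, with a dotted line for equal values. Members of 17q (red) sit at the left and below 0, those of the long arm of chromosome 8 (blue) at the right, and most others lie above the line.

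Some members had a transcription start close to that of a gene read the other way. Starts within 1000 bases, on opposite strands, paired 28 members with a protein-coding gene, in 27 distinct pairs. In 24 pairs both genes were tested, and 19 of them had differences of the same sign. No other gene pairs were set beside this count, and the pairs of MRPL10, MRPS7 and MRPL27 lie on 17q, where 514 of 578 tested genes were lower. Of the partners none passed, beside 4.10% of all genes tested, and 6 had an unadjusted limma p under 0.05, beside 22.0%. Across the 24 pairs the median difference was 0.18 for the members and 0.02 for their partners, beside 0.01 over all genes tested. The differences within pairs correlated with r = 0.557. This is given as a description, since the 2 genes of a pair share their place and both come from the same libraries. SLC7A7, an amino acid transporter subunit 59 bases from the start of MRPL52, had a difference of 0.37 (limma adjusted p = 0.187). EME2, 52 bases from the start of MRPS34, had −0.31 (adjusted p = 0.453), opposite in sign to its neighbour.

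MRPS11 and MRPL46 are both members and start 34 bases apart on chromosome 15. MRPL46 had 48.3, 54.9 and 82.9 normalised reads in WT 1, 2 and 3, against 36.4, 44.0 and 47.2 in knockdown 1, 2 and 3, with a difference of −0.23 (limma adjusted p = 0.375). MRPS11 had 467.1, 305.9 and 428.3 in WT 1, 2 and 3, against 356.2, 309.4 and 340.2 in knockdown 1, 2 and 3, with a difference of −0.19 (adjusted p = 0.496). Both were lower, neither passed, and the MRPS11 groups overlapped. Among the 10 lowest differences were also those of MRPL32 (−0.17, adjusted p = 0.636), MRPS36 (−0.15, adjusted p = 0.813) and MRPL1 (−0.10, adjusted p = 0.722), each of which changed sign when a library was left out. MRPS36, despite its name, is known in human cells as a subunit of the 2-oxoglutarate dehydrogenase complex.

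Per kilobase of transcript, the members' levels in WT spanned a wide range around a median of 842.5 normalised reads. The length used was that of the longest coding transcript marked as principal, so a long annotated transcript lowers the level. MRPL42, with 1756 normalised reads in WT and a length of 15582 bases, came to 112.7 and ranked 69 of 76. The highest were MRPL24 at 3149 ± 691, MRPL37 at 2947 ± 361, MRPS15 at 2194 ± 580, MRPS7 at 2159 ± 323 and MRPL51 at 2087 ± 534 (SD, n = 3). MRPL37, which has no bacterial homologue, had 4971, 4196 and 3943 normalised reads in WT 1, 2 and 3, against 5644.5, 4997 and 5957.5 in knockdown 1, 2 and 3. Its groups were separate by a small margin, with a difference of 0.34 ± 0.13 (SE; limma adjusted p = 0.166). MRPL24 differed by 0.07 (adjusted p = 0.859), MRPS15 by 0.11 (adjusted p = 0.775) and MRPL51 by 0.17 (adjusted p = 0.559), and all 3 overlapped. The lowest per kilobase were MRPL45 at 6.07 ± 3.8, MRPS24 at 30.8 ± 12.7, MRPL38 at 56.2 ± 22.1, MRPL46 at 60.9 ± 18 and MRPS17 at 77.6 ± 7.52.

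In this order of levels, 72 of 75 neighbouring pairs overlapped within their mean ± SD. The 3 pairs that did not were MRPL28 above MRPL13, MRPS33 above MRPL2, and MRPS24 above MRPL45. Reads in exons that genes share could have been given to either gene. In all, 40 members share some exon bases with another gene, and 25 share 10% or more. Those 25 had a median of 728 normalised reads per kilobase, beside 891 for the other 51, and they made up 6 of the 10 lowest members. MRPS24, at 11.7, 29 and 24.6 normalised reads in WT 1, 2 and 3, against 21.3, 15.1 and 17.2 in knockdown 1, 2 and 3, shares 23.2% of its exon bases with the readthrough gene URGCP-MRPS24. MRPS17 (0.15, adjusted p = 0.554) shares 27.0% and MRPS18C (−0.04, adjusted p = 0.910) 40.2%.

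**Figure D5:**
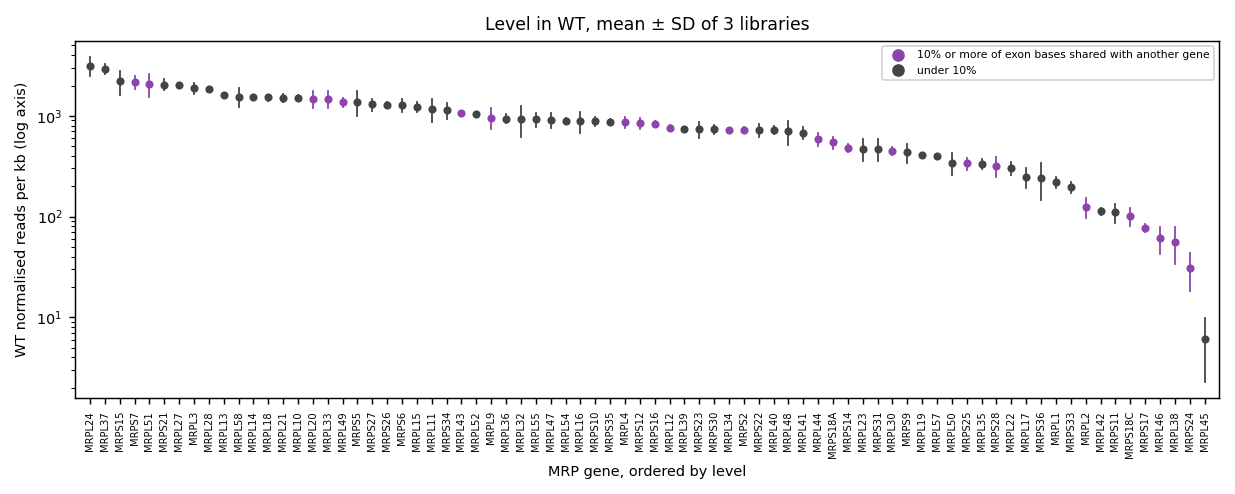
WT level of the 76 members in normalised reads per kilobase of transcript (log axis), ordered from the highest, with points for the mean and bars for the SD of 3 libraries. Purple members share 10% or more of their exon bases with another gene, and the order falls from MRPL24 at 3149 to MRPL45 at 6.07.

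The mitochondrial ribosome also holds proteins whose genes have other names, and most of them were higher too. Of 5 such genes tested, 4 were higher (80.0%, beside 51.0% of all genes tested) and the median was 0.22. None passed limma's test, beside 4.10% of all genes, and 1 had an unadjusted p under 0.05 (20.0%, beside 22.0%). CHCHD1, a small-subunit protein, had 727.7, 912.0 and 842.8 normalised reads in WT 1, 2 and 3, against 1069.6, 1034 and 1143 in knockdown 1, 2 and 3, which did not overlap. Its difference was 0.35 ± 0.12 (SE; limma adjusted p = 0.127). GADD45GIP1, of the large subunit, differed by 0.25 (adjusted p = 0.336), PTCD3, which binds the small subunit, by 0.22 (adjusted p = 0.329) and AURKAIP1 by 0.15 (adjusted p = 0.551). DAP3, the GTP-binding protein of the small subunit, differed by −0.06 (adjusted p = 0.832). The 2 RNAs of the ribosome and the mRNAs of mitochondrial DNA were not analysed here.

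The factors that build the ribosome were mostly higher as well. Of 26 assembly factors, 24 were tested, 19 were higher (79.2%, beside 51.0% of all genes tested) and the median was 0.15. None passed limma's test, beside 4.10% of all genes. At an unadjusted p under 0.05 there were 4 (16.7%, beside 22.0% of all genes), 3 higher and 1 lower. MTG1, a GTPase of large-subunit assembly, had a ratio of 1.67 and a difference of 0.52 (limma adjusted p = 0.110). MTERF3, which takes part in building the large subunit and lies on the long arm of chromosome 8, had 1083.5, 1227 and 1281 normalised reads in WT 1, 2 and 3, against 1681, 1619.7 and 1658 in knockdown 1, 2 and 3, with a difference of 0.44 (adjusted p = 0.0570).

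Translation factors were split between the directions. Of 14, 13 were tested, 6 were higher and 7 lower, and the median was −0.04. None passed limma's test, beside 4.10% of all genes. At an unadjusted p under 0.05 there were 4 (30.8%, beside 22.0% of all genes), 1 higher and 3 lower. GUF1, a homologue of the bacterial elongation factor LepA, had 1032, 1174 and 1408.5 normalised reads in WT 1, 2 and 3, against 793.3, 904.2 and 952.9 in knockdown 1, 2 and 3. Its difference was −0.40 ± 0.14 (SE; limma adjusted p = 0.125). GFM1, the elongation factor of translocation, differed by −0.33 (adjusted p = 0.160). Of 20 genes of aminoacyl-tRNA synthesis, 19 were tested, 13 were higher (68.4%, beside 51.0% of all genes) and the median was 0.06. WARS2 and CARS2 were both at 0.26 (limma adjusted p = 0.360 and 0.236). None was past the threshold, adjusted or unadjusted, beside 4.10% and 22.0% of all genes. With a library left out, the median of this list ran from −0.021, without WT 3, to 0.11, without WT 1, and that of the translation factors from −0.097, without WT 2, to 0.067, without WT 1.

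Among 14 genes of mitochondrial transcription and RNA processing, 9 were higher (64.3%, beside 51.0% of all genes). Their median was 0.04 (0.015 without WT 2, 0.12 without WT 3). Of these 14, 1 passed, beside 4.10% of all genes, and 2 had an unadjusted limma p under 0.05 (14.3%, beside 22.0%). HSD17B10, a dehydrogenase that is also a subunit of the mitochondrial ribonuclease P, had 1357, 1058 and 1217 normalised reads in WT 1, 2 and 3, against 2381, 1871 and 2150.4 in knockdown 1, 2 and 3. It rose 1.76-fold, with a difference of 0.77 ± 0.13 (SE; limma adjusted p = 0.0154), and the call was lost without WT 2, knockdown 1 or knockdown 3. SLIRP, which stabilises mitochondrial mRNAs, differed by 0.28 (adjusted p = 0.227). Of 9 regulators of nuclear mitochondrial genes, 3 were higher (33.3%, beside 51.0% of all genes). Their median was −0.07 (−0.13 without knockdown 3, −0.029 without WT 2). None had a limma p under 0.05, adjusted or unadjusted, beside 4.10% and 22.0% of all genes. ESRRA differed by 0.28 (adjusted p = 0.269) and PPARGC1B, a coactivator, by −0.31 (adjusted p = 0.229). In each of these lists limma voom on the recovered reads called as many genes as the test on the deposited values.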

How the data were processed

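RNA of 3 WT and 3 knockdown libraries was sequenced. Per the submitters' processing notes, reads were handled with STAR, CASAVA 1.8.2, FastQC, Trim Galore, DESeq and MultiQC on GRCh38. How reads were counted, with which annotation and whether by strand, is not stated there or in the labels used here. The deposited values are log2-like, scaled by library and variance-stabilised by the authors, going by the file's name and values. Knockdown columns are headed as such, and the other 3 were taken as WT by elimination. Inverting the stabilising function (offset 55.2) gave whole reads for 100% of values within 0.01 of a whole number, and these recovered reads gave depth, normalised reads and ratios of group means. Differences of weakly expressed genes are understated on the log2 scale.

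Genes with a mean at least 1 above the lowest value were tested with limma 3.58.1 in R 4.3.3 (mean-variance trend, two-sided, no covariates), with Benjamini-Hochberg adjustment over 13558 genes and 0.05 as the threshold. Exact permutation of 3 against 3 cannot go below p = 0.1. On simulated data with 13521 genes, the test recovered 40% of genes changed 1.5-fold and 82% changed 2-fold in this comparison. The simulation changed 50 genes at each fold, left 13358 unchanged and drew noise independently for each gene. Changes below 1.5-fold were not simulated, so it gives no recovery for a difference as small as the members' median. The members, lists and alternatives were chosen with earlier results of these data known. Named genes are MSI1; the members that passed; the 10 largest and 10 lowest differences; the 5 highest and 5 lowest levels per kilobase; members under the filter or on 17q; and, of each list, every gene of a list of 5, otherwise those that passed and the 2 largest absolute differences. Others (MRPL15, MTBP, HEY1, SLC7A7, EME2 and the cell type markers) were chosen after their values were seen. Coordinates, lengths and exon overlaps are from GENCODE 29, matched by name. Alternatives were no filter, a filter at 2 above the lowest value, quantile normalisation, median centring, no trend, robust variance, library weights, the replicate block, limma voom on recovered reads, no 17q genes, and each library left out.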

Additional observations from a re-analysis of the deposited data

How the results depend on the processing

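The members called numbered 2, and became 1 with no filter, 1 with no mean-variance trend, 1 without the long arm of chromosome 17 and 8 with library weights, of which 1, MRPL10, was lower. With a library left out they ranged from 0 to 3, with none without WT 3, knockdown 1, knockdown 2 or knockdown 3. Same-numbered libraries did not stand out as pairs. Their deviations correlated at −0.0045, −0.25 and 0.0046, and no library correlated best with its own number. Deviations from a mean of 3 libraries cancel within the group, so these correlations cannot settle whether the samples were paired. With the replicate block 0 members and 221 of all genes were called, beside 556 without it. Library weights called 1213 of all genes, and leaving out 1 library called 56 to 726, with 56 without knockdown 1. The median of members without a bacterial homologue was 0.24 with library weights and 0.12 to 0.19 with a library left out. That of members with one was 0.065 to 0.19 with a library left out. In the same analyses the median was 0.066 to 0.19 for members named MRPS and 0.11 to 0.21 for those named MRPL. The median of all 17q genes was −0.41 with voom and −0.34 to −0.30 with a library left out. Library weights called 2 assembly factors, MTERF3 and MTG1. With a library left out, the median ranged from −0.097 to 0.067 for translation factors, from −0.021 to 0.11 for aminoacyl-tRNA synthesis, from 0.015 to 0.12 for transcription and RNA processing, whose calls ranged from 0 to 1, and from −0.13 to −0.029 for regulators. The members' median was 0.10 to 0.19 and above 0 in all 16 alternatives. Of 695 values for 44 named genes, 653 kept their direction and side of the threshold, 18 lost and 10 gained a call, and 14 changed sign. All but 1 of these came with a library left out, where MRPL32 ranged from −0.33 to 0.063 (without WT 1), MRPS36 from −0.44 to 0.15 (above 0 without WT 2, at 0.016, or knockdown 2), MRPL1 from −0.19 to 0.0045 (without knockdown 3), MRPS15 from −0.020 (without WT 2) to 0.31, MRPL24 from −0.043 (without WT 3; −0.0048 without knockdown 3) to 0.23, MRPL38 from −0.16 to 0.11 (without WT 3; 0.0059 without knockdown 3), MRPS18C from −0.14 to 0.066 (without WT 3; 0.051 without knockdown 3), MRPL12 from −0.16 to 0.042 (without knockdown 2) and DAP3 from −0.13 to 0.069 (without WT 1). With library weights DAP3 was at 0.0016. The cause was not tested. Fewer than 3 libraries in a group assume that the remaining ones vary alike. Depth limits MRPL45 and MRPS24, which lie below the filter of 27.6 normalised reads. It also limits MRPL46 and MRPL38, which pass the filter with WT means of 62.0 and 106 normalised reads.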
